A study of Oryctolagus cuniculus with 12 samples.

Results

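The complement genes described here in rabbit conjunctiva are the 3 chains of C1q (C1QA, C1QB, C1QC), the proteases C1R and C1S, the central component C3, complement factor B (CFB), and the receptors C3AR1 and C5AR1. They were chosen by name, as the genes of the deposited gene table whose name equals 1 of these 9, and 7 of the 9 were found among 20566 genes. No gene of the table is named C1QA or C1QB, and the gene named C1QC may stand for another chain, as described with its values. All 7 found genes passed the filter on low counts, which kept 14835 genes. The RNA came from conjunctiva of female Japanese white rabbits, with 3 libraries in each of 4 groups. The control group is conjunctiva of the unoperated left eyes. The other 3 groups are conjunctiva with the filtration bleb (the raised tissue over the drainage site) from right eyes, taken at 3 hours (TL3h), 3 days (TL3d), or 14 days (TL14d) after trabeculectomy (TL), a glaucoma operation that drains aqueous humor under the conjunctiva. Every operated eye received mitomycin C, an antiproliferative drug, and by the study's methods the operation ended with betamethasone, a glucocorticoid, and an antibiotic ointment, so the surgery and these drugs cannot be told apart in these groups. The study's methods give an age of 12 to 14 weeks for its rabbits, and the labels give no age, no match of control eyes to operated eyes, and no collection time for control tissue, and the same 3 control libraries serve all comparisons with control.

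Complement is a protein cascade of innate immunity. In the classical pathway C1q binds antibody complexes or damaged surfaces and carries the proteases C1r and C1s, which cleave C4 and C2, and all pathways meet at the cleavage of C3, with factor B forming the enzyme that amplifies it. The cleavage products C3a and C5a attract and activate leukocytes through C3AR1 and C5AR1, and the ocular surface makes many complement proteins locally and guards itself with inhibitors such as CD55 and C1 inhibitor.

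Total counts per library ranged from 27111276 to 38591374, and levels are given in CPM, counts scaled to library size after TMM normalization, which corrects for RNA composition. A count of 0 would allow up to 3 counts, or 0.0712 to 0.124 CPM, at 95% confidence and for counting error only. The epithelial keratins KRT5 and KRT4 were abundant in every group, with means from 1878 to 7102 CPM, and the goblet cell mucin MUC5AC has no gene of that name in the table. Control replicate 3, TL3d replicate 3, and TL14d replicate 1 stood apart from the other libraries of their groups, with correlations of log2 CPM to these of 0.93 and 0.95, 0.92 and 0.95, and 0.88 and 0.91. Fibroblast markers (7 genes with COL1A2, COL3A1, and DCN) summed to 58479 CPM in control replicate 3 against 9983 and 27410 CPM in the other control libraries. In the TL3d group they summed to 45685 CPM in replicate 3 against 1110 and 8430 CPM. Epithelial markers (5 genes) summed to 6089 CPM in TL3d replicate 3 against 16160 and 14290 CPM. Skeletal muscle markers (3 genes) summed to 315 CPM in that library against 0.50 and 0.86 CPM, and to 206 CPM in control replicate 2 against 0 and 0.25 CPM. In bulk tissue a lower level can come from fewer cells of a type or from less RNA per cell, and these cannot be told apart.

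The clearest pattern was in the receptors. C5AR1 was high at 3 hours and C3AR1 at 3 days. Among the remaining members, C1QC, C1R, C1S, C3, and CFB, no comparison with control passed the test. Calls are adjusted p-values at or under 0.05 from edgeR's quasi-likelihood test.

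Of the 7 members, 1 rose at TL3h (C5AR1) in a comparison in which 45.4% of the 14835 genes passed the test. Of the genes called there 51.0% were higher, and 25.0% when scaled by library size only, which moved the median log2 fold change over all genes from 0.02 to −0.47. At TL3d 2 rose (C3AR1, C5AR1), where 17.6% of genes passed. At TL14d 0 of 7 passed, where 0% of genes passed by edgeR, 1538 genes had an unadjusted p under 0.05, and DESeq2 called 367 genes. The share of members called at TL3h, 1 of 7, was below the background. At TL3d the count was 1 of 7 when any 1 of 10 libraries was left out (all but control replicate 3 and TL14d replicate 1), when no filter was used, or when only the 6 libraries compared were fitted. Over all genes the calls in these fits ran from 359 to 3263, beside 2608 as reported. Between TL3d and TL3h 1 member rose (C3AR1; background 37.3%), and between TL14d and TL3d 1 fell (C3AR1; background 2.24%). The members' median log2 fold change over control was 0.99 at TL3h, 0.05 at TL3d, and −0.79 at TL14d, beside medians over all genes tested of 0.02, −0.00, and 0.02. Groups did not overlap for 2 of 7 members at TL3h (both higher; background 57.3% in either direction), 2 of 7 at TL3d (both higher; 45.5%), and 1 of 7 at TL14d (lower; 11.1%). Between TL3d and TL3h they did not overlap for 3 of 7 (C3AR1 higher, C1R and C5AR1 lower; 54.7%), and between TL14d and TL3d for 3 of 7 (C1QC, C3AR1, and C5AR1, all lower; 27.4%).

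**Figure D1:**
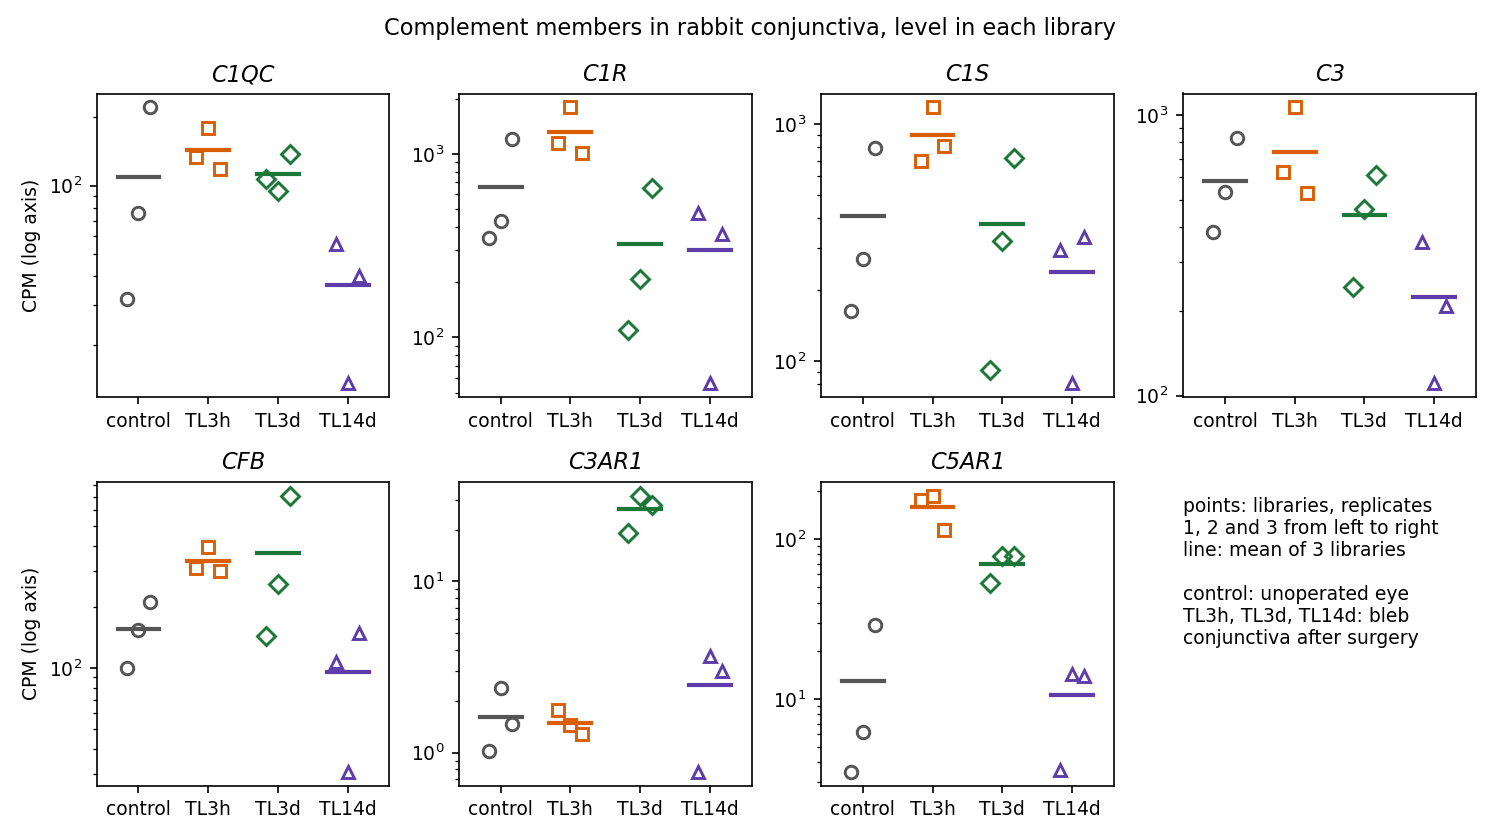
Level of each of the 7 members in CPM on a log axis, with 1 point per library (replicates 1, 2, and 3 from left to right) and a line at the mean of 3 libraries. All 3 TL3d libraries of C3AR1 lie above 19 CPM and the 9 other libraries below 4 CPM, while the 3 C5AR1 libraries of TL3h lie between 113 and 186 CPM.

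C3AR1 encodes the receptor of the anaphylatoxin C3a. Its level was 1.02, 2.38, and 1.48 CPM in the control libraries and 1.77, 1.45, and 1.28 CPM in the TL3h libraries. It was 19.3, 31.6, and 28.1 CPM in TL3d and 0.77, 3.67, and 2.99 CPM in TL14d. The TL3d libraries stood above every other library, and the other 3 groups overlapped. C3AR1 rose 16.2-fold from control to TL3d, a log2 fold change of 4.02 ± 0.55 (SE, adjusted p = 0.00805). All adjusted p-values are from edgeR's quasi-likelihood test with Benjamini-Hochberg adjustment over the 14835 genes, with 3 libraries per group. From TL3h to TL3d the gene rose 17.5-fold (log2 4.13 ± 0.56, adjusted p = 0.000391), and from TL3d to TL14d it was 10.6-fold lower (log2 −3.41 ± 0.53, adjusted p = 0.0243). At TL3h the log2 difference to control was −0.12 with a 95% confidence interval from −1.24 to 1.01, and at TL14d it was 0.61 with an interval from −0.50 to 1.72. The rise at TL3d passed the test in all 21 alternative analyses. The fall to TL14d did not pass without TL3d replicate 1, TL3d replicate 2, or TL14d replicate 3, where adjusted p ranged from 0.0671 to 0.0948, or with only the 6 libraries compared (0.0854).

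C5AR1 encodes the receptor of C5a, a strong attractant of neutrophils. Its level was 3.49, 6.23, and 28.9 CPM in control, and 174, 186, and 113 CPM in TL3h. In TL3d it was 53.2, 78.0, and 78.7 CPM, and in TL14d 3.56, 14.3, and 13.9 CPM. Every TL3h library exceeded every TL3d library, and every TL3d library exceeded every control and TL14d library. C5AR1 rose 12.3-fold at TL3h (log2 3.62 ± 0.79, adjusted p = 0.00410) and 5.44-fold at TL3d (log2 2.44 ± 0.75, adjusted p = 0.0483). The control mean of 12.9 ± 13.9 CPM (SD, n = 3) was set largely by replicate 3, and without that library the log2 fold changes were 4.97 at TL3h and 3.83 at TL3d. The call at TL3d was close to the threshold. It did not pass when any 1 of 10 libraries was left out (all but control replicate 3 and TL14d replicate 1), with adjusted p from 0.0525 to 0.142, with no filter on low counts (0.0543), or with only the 6 libraries compared (0.0818). The rise at TL3h passed in all 21 alternatives. Between TL3d and TL3h the log2 difference was −1.17 ± 0.72 (adjusted p = 0.222, and 0.0147 with only these 6 libraries), and between TL14d and TL3d it was −2.73 ± 0.76 (adjusted p = 0.0828, and 0.0268 without control replicate 3 and 0.00298 with DESeq2). At TL14d the difference to control was −0.28 with an interval from −1.87 to 1.31, and 1.11 without control replicate 3.

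**Figure D2:**
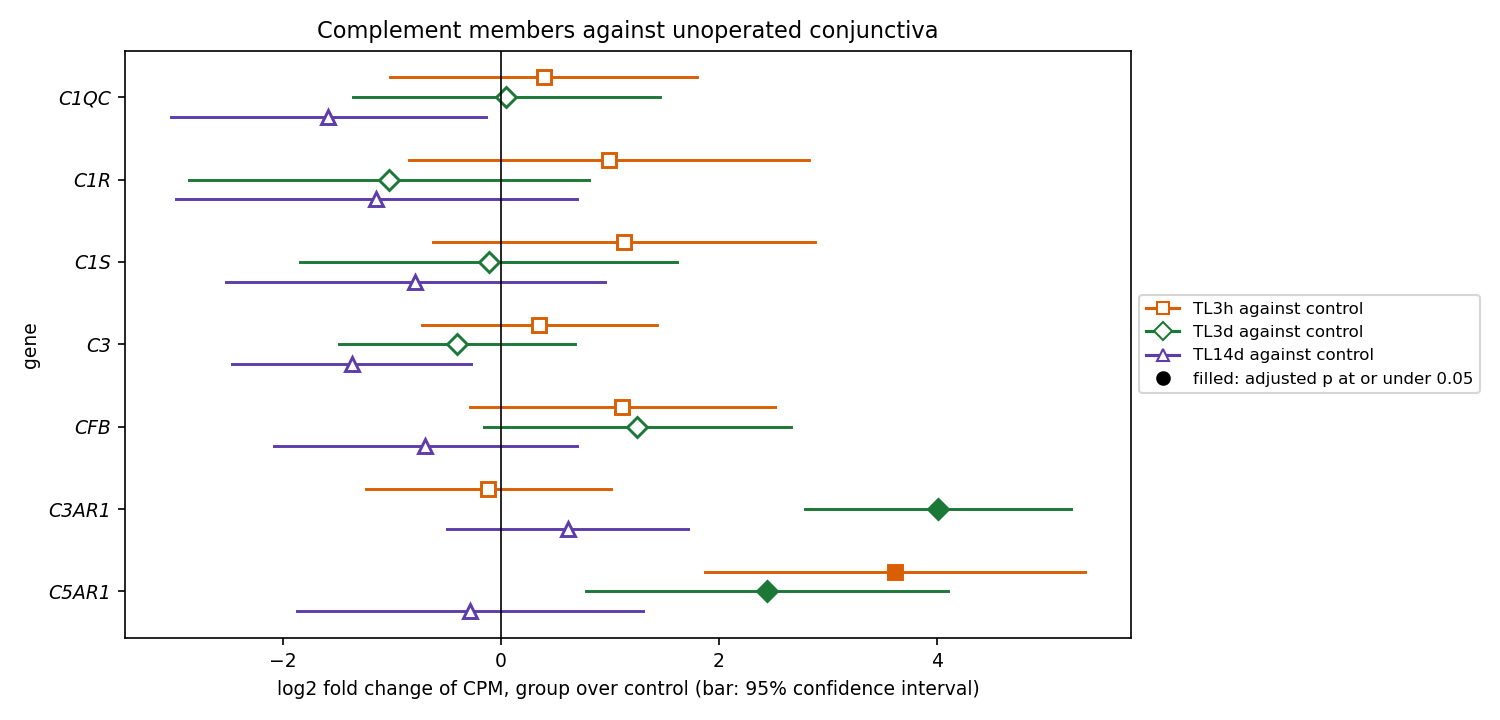
Log2 fold change of each member over control at 3 time points, with bars for the 95% confidence interval and filled symbols where the adjusted p was at or under 0.05. C5AR1 at TL3h (3.62) and TL3d (2.44) and C3AR1 at TL3d (4.02) are filled, and the unadjusted intervals of C1QC and C3 at TL14d lie below 0 with open symbols.

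Because both receptors were measured in the same library, their ratio does not depend on how libraries were scaled. In FPKM, a level per length and depth, C5AR1 exceeded C3AR1 by 111-, 144-, and 99.0-fold in the TL3h libraries and by 3.09-, 2.76-, and 3.14-fold in the TL3d libraries. In control the ratio was 3.83, 2.94, and 21.9, and in TL14d it was 5.17, 4.36, and 5.20. The TL3h ratios lay above those of every other group. An exact two-sided permutation test of 3 against 3 libraries gave p = 0.1 for TL3h against control and for TL3d against TL3h, the smallest p this design allows, and 0.214 adjusted over the 30 ratio comparisons made.

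Cell type markers were set beside both receptors. Neutrophil markers (7 genes with a value, among them CSF3R, CXCR2, and S100A8) summed to between 3.68 and 80.0 CPM in control, 1001 and 2680 CPM in TL3h, 119.8 and 723 CPM in TL3d, and 3.26 and 102 CPM in TL14d. All 6 tested ones rose at TL3h and 1 of 6 at TL3d, where 23.2% and 10.6% of all genes were called higher, and the untested marker MPO was at 0 in 5 libraries and near 0 in the rest. Macrophage markers (8 genes, among them CD68, CD163, and CSF1R) summed to between 79.4 and 624 CPM in control, 662 and 1015 CPM in TL3h, 1355 and 2177 CPM in TL3d, and 100.2 and 481 CPM in TL14d. Of these 8, 2 rose at TL3h, a share close to that of all genes, and 5 at TL3d. Endothelial markers (5 genes) also summed higher in TL3h, to between 605 and 1211 CPM against 63.7 and 275 CPM in control, with PECAM1 and CDH5 called. PECAM1 made up most of the TL3h sum, with a mean of 716 CPM against 55.8 CPM in control. The mean of VWF was also higher in TL3h, while KDR (18.6 against 32.8 CPM) and TEK (6.35 against 8.09 CPM) were lower than in control. Red cell markers (3 genes) summed to between 11.9 and 101.2 CPM in TL3h against 0.047 and 5.77 CPM in control, with ALAS2, the 1 gene tested, called. Of 3 tested mast cell markers, MS4A2 and HDC rose and KIT fell at TL3h, and MS4A2 rose and KIT fell at TL3d. The B cell marker MS4A1 rose at both times, CD3D of the T cell markers fell at TL3h, and of the epithelial markers EPCAM rose at TL3h and KRT5 at TL3d. The part of these cells in the receptor results was not tested.

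**Figure D3:**
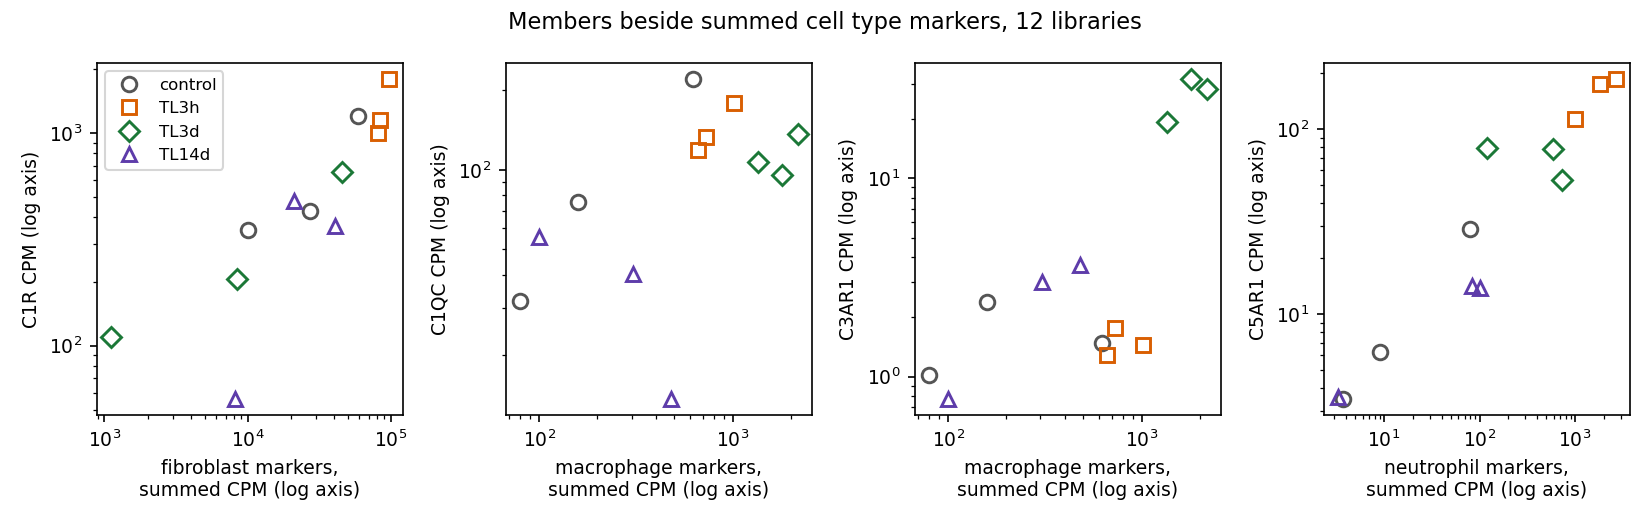
Levels of C1R, C1QC, C3AR1, and C5AR1 in CPM against the summed CPM of fibroblast, macrophage, macrophage, and neutrophil markers in the 12 libraries, all axes logarithmic. C3AR1 is high in the 3 TL3d libraries, where macrophage markers sum to 1355 CPM or more, and C5AR1 is highest in the TL3h libraries, where neutrophil markers sum to 1001 CPM or more.

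The C1 complex comprises the recognition subunit C1q and the proteases C1r and C1s. The C1QC gene of the table lies on chromosome 13 of OryCun2.0 at positions 130475444 to 130493612, on the minus strand, and its single transcript model has 2687 bases. Its gene ID, 100347327, belongs to C1QA in RefSeq's newer mOryCun1.1 assembly, where C1QB, C1QC, and C1QA lie side by side, and the IDs that C1QB and C1QC have there are not in the table. Which of the 3 chains gave its reads therefore cannot be told apart, and its values are given here under the name the table uses.

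C1QC was 31.9, 75.7, and 221 CPM in control, and 133, 178, and 119 CPM in TL3h. It was 107, 95.2, and 137 CPM in TL3d, and 55.7, 13.6, and 40.2 CPM in TL14d. The control libraries spanned the whole range of TL3h and TL3d, and all TL14d libraries lay below all TL3d libraries. Against control the log2 difference was 0.39 ± 0.63 at TL3h (adjusted p = 0.652, and −0.067 when scaled by library size only), 0.05 ± 0.63 at TL3d (adjusted p = 0.965), and −1.58 ± 0.65 at TL14d (adjusted p = 0.446). The intervals of the first pair of differences, from −1.02 to 1.80 and from −1.36 to 1.46, leave room for a change of more than 2-fold either way. Without control replicate 3 the values were 1.37 at TL3h, 1.06 at TL3d, and −0.57 at TL14d. C1QC was highest in control replicate 3, which also had the highest macrophage sum of its group, 624 CPM against 79.4 and 159 CPM, and the highest fibroblast sum, 58479 CPM. In the TL3d group macrophage markers summed to 1355 CPM or more while C1QC stayed within the control range. The part of these cells in the C1QC values was not tested. The ratio of C3AR1 to C1QC in FPKM was 0.225, 0.413, and 0.255 in TL3d and from 0.00834 to 0.0397 in control, with no overlap (exact permutation p = 0.1, the smallest possible, and 0.214 adjusted). In TL14d it was 0.0173, 0.335, and 0.0927 and overlapped TL3d.

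C1R and C1S, which encode the proteases of C1, lie next to each other on chromosome 8. C1S spans 33037552 to 33047196 on the plus strand and C1R spans 33061896 to 33069885 on the minus strand, with 14699 bases and no annotated gene between their facing ends. C1R was 349, 429, and 1205 CPM in control, 1146, 1792, and 1004 CPM in TL3h, 109.7, 206, and 655 CPM in TL3d, and 476, 56.1, and 365 CPM in TL14d. C1S was 163, 269.6, and 790.0 CPM in control, 700.5, 1174, and 805 CPM in TL3h, 91.5, 322, and 717 CPM in TL3d, and 294, 80.7, and 335 CPM in TL14d. The TL3h libraries were high and alike, and the other groups spread widely, with replicate 3 the highest in control and TL3d for both genes and replicate 2 the lowest in TL14d.

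C1R was on average 1.99-fold higher in TL3h than in control (log2 0.99 ± 0.82, adjusted p = 0.362) and C1S 2.19-fold (log2 1.13 ± 0.79, adjusted p = 0.273), neither past the threshold. Without control replicate 3 these log2 differences were 1.70 and 1.99. They were 0.68 and 0.75 without control replicate 1, and 0.52 and 0.67 when scaled by library size only. At TL3d the log2 differences to control were −1.03 ± 0.83 for C1R and −0.11 ± 0.78 for C1S, and at TL14d −1.14 ± 0.83 and −0.79 ± 0.78. Without control replicate 3 the values at TL3d were −0.28 for C1R and 0.78 for C1S, and at TL14d −0.39 and 0.12. Without TL3d replicate 3 those at TL3d were −2.06 and −0.98. Between TL3d and TL3h, every C1R library of TL3d was below every TL3h library (log2 −2.02 ± 0.85, adjusted p = 0.0856), and this difference passed the threshold with DESeq2 (adjusted p = 0.0288) and without TL3d replicate 3 (log2 −3.05) or TL14d replicate 2. Fibroblast markers followed the same libraries: their sums were 80936 to 97082 CPM in TL3h, the highest of all groups, and 20966, 8122, and 40531 CPM in TL14d. This was not particular to fibroblast markers. Endothelial marker sums were also highest in TL3h (605 to 1211 CPM). Both the endothelial and the B and plasma cell marker sums were highest in replicate 3 of control and TL3d and lowest in replicate 2 of TL14d. None of the 7 fibroblast markers passed the test at any time against control (background 45.4%, 17.6%, and 0%), although their median log2 fold change at TL3h was 1.42. Between TL3h and TL3d 2 of 7 fell (DCN and FBLN1; background 37.3% in either direction), and the markers' part in the C1R and C1S values was not tested.

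Across the 12 libraries log2 CPM of C1R and C1S correlated with r = 0.94, and that of C1R and C3 with r = 0.88. These values describe libraries that differ in depth and tissue makeup, and the part of these differences in the correlations was not tested. The ratio of C1S to C1R in FPKM was 0.377, 0.506, and 0.528 in control and 0.671, 1.26, and 0.882 in TL3d, with every TL3d library above every control and TL3h library (exact two-sided permutation p = 0.1, the smallest possible with 3 against 3 libraries, and 0.214 adjusted), a test that could not reach the threshold. In TL14d it ranged from 0.497 to 1.16 and overlapped every other group.

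C3 is the component that all pathways activate. The gene named C3 lies on unplaced sequence, and its longer transcript model has 2708 bases. Its level was 383, 531, and 828 CPM in control, 627, 1066, and 529 CPM in TL3h, 243, 462, and 612 CPM in TL3d, and 354, 110.5, and 209 CPM in TL14d. All TL14d libraries lay below all control libraries, by a log2 difference of −1.37 ± 0.49 that did not pass (adjusted p = 0.412), in a comparison in which 0 of 14835 genes passed. At TL3h the difference was 0.35 ± 0.49 (interval from −0.73 to 1.43, and −0.13 when scaled by library size only) and at TL3d −0.40 ± 0.49 (interval from −1.48 to 0.68).

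A separate gene of the table, LOC100346672, is also annotated as complement C3. It was far lower, with means of 0.54 CPM in control, 0.14 CPM in TL3h, 4.38 CPM in TL3d, and 0.68 CPM in TL14d. It rose 8.10-fold at TL3d over control (log2 3.02 ± 0.84, adjusted p = 0.0371). That call did not pass when any 1 of 8 libraries was left out (all 3 control, all 3 TL3d, and TL3h replicates 1 and 3), where adjusted p reached 0.0911, or with replicate number as a block (0.0640). From TL3h, where it had 5, 2, and 4 counts, to TL3d it rose by 4.92 ± 0.96 on the log2 scale (adjusted p = 0.00302), a call that passed in all 21 alternatives. How reads matching both C3 genes were shared is not stated in the sources used here.

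CFB supplies the protease of the alternative pathway's C3 convertase. It lies on chromosome 12 at positions 20779026 to 20785174, and the related gene C2 ends 815 bases before it on the same strand. CFB was 99.8, 155, and 211 CPM in control and 310.0, 395, and 302 CPM in TL3h. In TL3d it was 143, 259, and 706 CPM, and in TL14d 107, 30.8, and 149 CPM. All TL3h libraries exceeded all control libraries, and the mean was 2.17-fold higher (log2 1.11 ± 0.63, adjusted p = 0.178). That difference passed only when the fit held the 6 libraries of these groups alone (adjusted p = 0.0226), and it was 0.63 when scaled by library size only. The TL3d group spread widely around a log2 difference of 1.25 ± 0.63 (adjusted p = 0.180), and TL14d differed from TL3d by −1.95 ± 0.65 (adjusted p = 0.121, and 0.0198 with DESeq2). Without TL3d replicate 3 these CFB differences were 0.38 and −1.07.

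**Figure D4:**
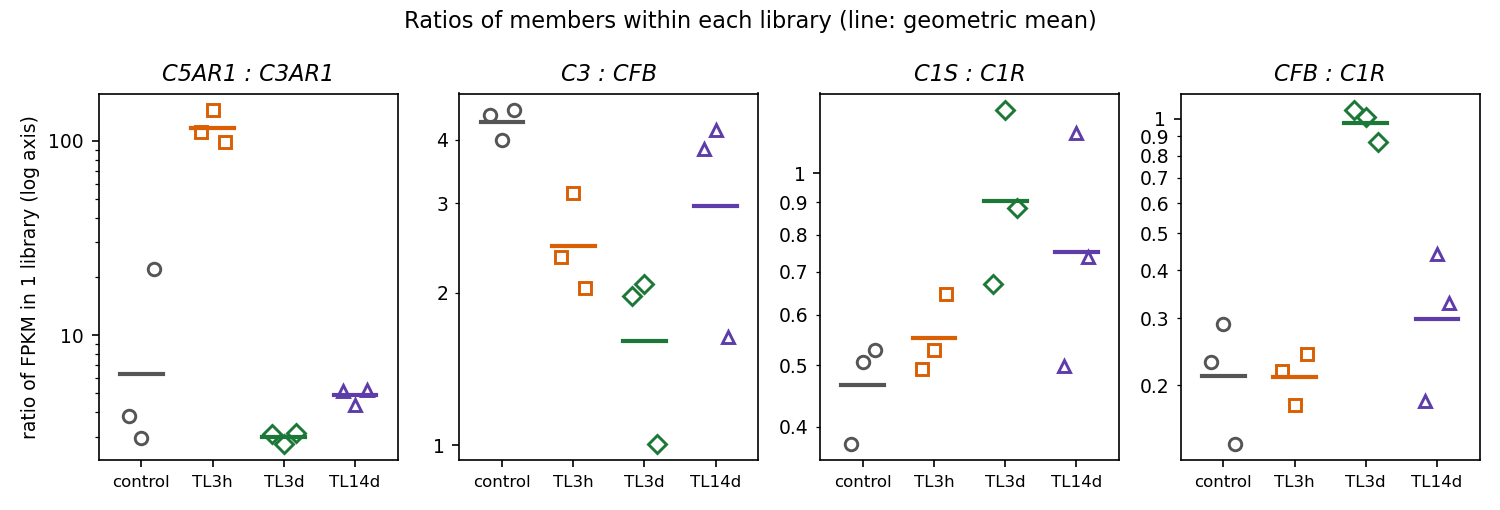
Ratio of FPKM of C5AR1 to C3AR1, C3 to CFB, C1S to C1R, and CFB to C1R within each library on log axes, with a line at the geometric mean of 3 libraries. The ratio of CFB to C1R is 0.868 or more in the TL3d libraries and 0.442 or less in the 9 others.

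In FPKM within each library, C3 exceeded CFB by 4.47-, 4.0-, and 4.58-fold in control, by 2.36-, 3.14-, and 2.04-fold in TL3h, and by 1.97-, 2.08-, and 1.01-fold in TL3d. Every TL3h and TL3d ratio was below every control ratio (exact permutation p = 0.1 for each, the smallest possible, 0.214 adjusted), and this test could not reach the threshold. In TL14d the ratios were 3.84, 4.18, and 1.63 and overlapped control. Against C1R, CFB stood at 0.230, 0.290, and 0.141 in control and at 1.05, 1.01, and 0.868 in TL3d, again with no overlap.

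Compared per length, C1R, C3, and C1S were the most abundant members in control. Their mean FPKM was 245, 203, and 121, followed by CFB at 46.7, C1QC at 38.1, C5AR1 at 6.21, and C3AR1 at 0.72. C1R ranked 231 of 20566 genes and C3AR1 ranked 12482. In control only the last neighbours in this order, C5AR1 and C3AR1, did not overlap between libraries. At TL3h C5AR1, at 56.3 FPKM, stood above C1QC at 36.7 FPKM in every library, although their ranges over libraries overlapped. At TL3d C3 (156 FPKM), C1R (121), C1S (114), and CFB (112) overlapped one another, and C3AR1 reached 11.8 FPKM, the rank of 5704. At TL14d C1R (113 FPKM) again headed C3 (79.9) and C1S (72.2), with overlapping ranges.

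Counts per transcript model were tested over 26082 models. The model of C1R with 2393 bases took 72.6% to 89.5% of the gene's counts and that of C1S with 3129 bases 83.1% to 94.8% over the 12 libraries. For C5AR1 the model with 1699 bases held 97.9% or more in every library, and another model had a count of 0 in each group. The 1699-base model of C5AR1 rose at TL3h (adjusted p = 0.00743) and did not pass at TL3d (0.0835). C3AR1 has a pair of nearly identical models of 2187 and 2189 bases, between which reads are hard to divide. The longer of them rose at TL3d over control (log2 4.08 ± 0.82, adjusted p = 0.0303), and its lower level at TL14d than at TL3d did not pass (0.0933). The shorter was at 0 in all TL3h libraries and at a mean of 0.21 CPM in control, a difference that passed (adjusted p = 0.0410), and its share of the gene's counts ran from 0% to 34.1% in control and from 12.9% to 73.9% in TL14d.

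Each member was also set beside the other genes by the correlation of log2 CPM over the 12 libraries among 11751 genes, as a description. The genes most like C5AR1 were TLR4 (r = 0.992), NLRP3 (0.990), and GANAB (0.983). TLR4, the endotoxin receptor, had means of 19.6 CPM in control, 276 CPM in TL3h, 137 CPM in TL3d, and 21.7 CPM in TL14d. The genes most like C3AR1 were THEMIS2 (r = 0.963), CTSC (0.963), and TLR1 (0.960). CTSC, the lysosomal protease cathepsin C, had means of 138 CPM in control, 102 CPM in TL3h, 436 CPM in TL3d, and 136 CPM in TL14d.

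C1R was most like SERPING1 (r = 0.993), which encodes C1 inhibitor, the serpin that inactivates C1r and C1s, followed by CADM3 (0.990) and ADGRD1 (0.987). C1S was most like ADAMTSL1 (0.978), SPON1 (0.964), and SERPING1 (0.964). SERPING1 had means of 203 CPM in control, 428 CPM in TL3h, 129 CPM in TL3d, and 103 CPM in TL14d, and did not pass the test in any comparison. C1QC was most like SEPP1 (0.971), PRIMA1 (0.961), and LYVE1 (0.941), C3 was most like CXCL12 (0.937), PABPC4L (0.928), and CD5L (0.923), and CFB was most like SCPEP1 (0.913), CLEC4G (0.913), and CHID1 (0.898).

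**Figure D5:**
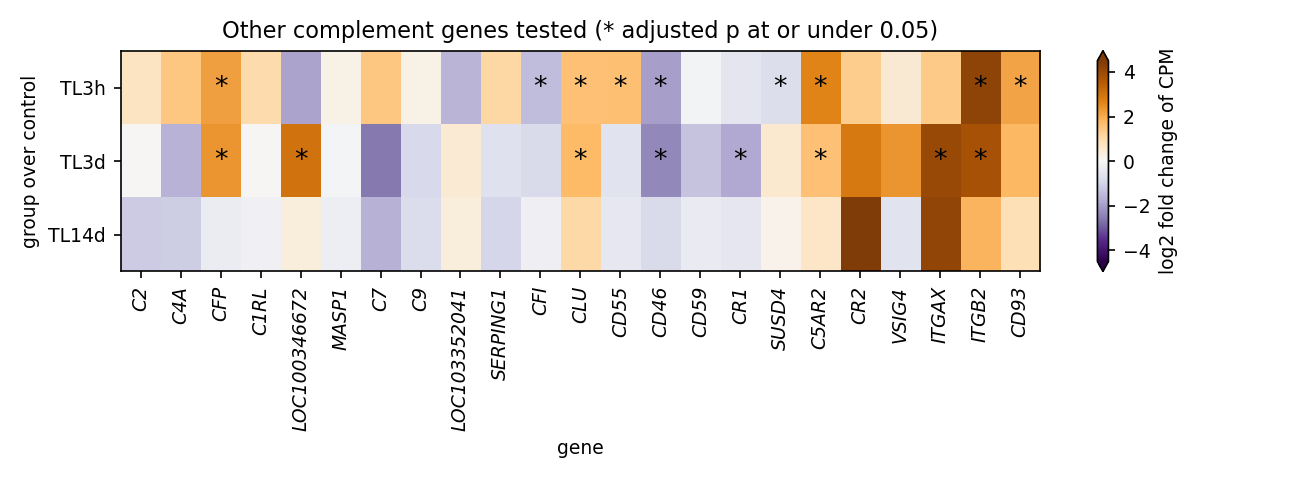
Log2 fold change over control of other complement genes tested, ordered from components through inhibitors to receptors, with a star where the adjusted p was at or under 0.05. Colours at the ends of the scale also stand for values beyond it. TL3h holds 9 stars, TL3d 8, and TL14d 0.

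Of 48 other complement genes listed, 36 were found in the table and 24 passed the filter on low counts. At TL3h 6 rose and 3 fell, at TL3d 6 rose and 2 fell, and at TL14d 0 passed. The 8 calls at TL3d fell to 0 without control replicate 2, TL3d replicate 1, or TL3d replicate 2, to 1 without control replicate 1, and to 5 without TL3h replicate 3. Calls over all genes also fell in these fits, from 2608 to 370, 449, 359, 491, and 2064 in the same order. The background for calls in 1 direction was 23.2% higher and 22.2% lower at TL3h, and 10.6% higher and 7% lower at TL3d. Their median log2 fold change was 1.04 at TL3h, 0.05 at TL3d, and −0.29 at TL14d. By role, at TL3h the calls in either direction were 1 of 5 components of the classical and alternative pathways, 0 of 3 of the terminal pathway, 0 of 1 of the lectin pathway, 2 of 4 fluid inhibitors, 3 of 5 membrane regulators, and 3 of 6 receptors (background 45.4%). At TL3d they were 2 of 5, 0 of 3, 0 of 1, 1 of 4, 2 of 5, and 3 of 6 in the same order (background 17.6%).

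Among components, CFP encodes properdin, which stabilizes the alternative C3 convertase. It rose from 7.14 ± 5.18 CPM in control to 32.5 ± 13.4 CPM in TL3h (log2 2.19 ± 0.51, adjusted p = 0.00604) and 37.4 ± 3.26 CPM in TL3d (log2 2.39 ± 0.51, adjusted p = 0.0177), and fell to 5.68 ± 1.48 CPM in TL14d (log2 −2.72 ± 0.52 against TL3d, adjusted p = 0.0344). Without control replicate 3 the rises were 2.87 and 3.11 on the log2 scale. The rise at TL3d did not pass without control replicate 2, TL3d replicate 1, or TL3d replicate 2 (adjusted p at most 0.0675), and the fall did not pass when any 1 of 7 libraries was left out (control replicate 2, TL3h replicate 1, all 3 TL3d, and TL14d replicates 1 and 3, at most 0.120).

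C4A, a component cleaved by C1s, had 1191 ± 945 CPM in control, 3307 ± 732 CPM in TL3h, and 382 ± 476 CPM in TL3d, and fell from TL3h to TL3d (log2 −3.12 ± 1.11, adjusted p = 0.0485). That call did not pass when any 1 of 9 libraries was left out, the exceptions being control replicate 3, TL3d replicate 3, and TL14d replicate 2 (adjusted p up to 0.147). It did not pass either when scaled by library size only (0.0645), with no filter (0.0548), or with only the 6 libraries compared (0.0623), and without TL3d replicate 3 the log2 fold change was −4.91. C7, part of the membrane attack complex, fell from 23.7 ± 13.8 CPM in TL3h to 1.45 ± 2.09 CPM in TL3d (log2 −4.03 ± 1.23, adjusted p = 0.0265), with a log2 fold change of −6.60 without TL3d replicate 3. Its call did not pass without TL3h replicate 1 or 3 or TL3d replicate 1 or 2 (adjusted p up to 0.0865).

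Among inhibitors, CD55, which speeds the decay of C3 convertases on the cell surface, rose from 195 ± 89.7 CPM in control to 607 ± 122 CPM in TL3h (log2 1.64 ± 0.35, adjusted p = 0.00376). It then fell to 126 ± 30.2 CPM in TL3d (log2 −2.26 ± 0.36 against TL3h, adjusted p = 0.000945). Both calls passed without any single library. CLU, which encodes clusterin, an inhibitor of the terminal complex and a chaperone, rose from 660.5 ± 127 CPM to 1996 ± 624 CPM in TL3h (log2 1.60 ± 0.48, adjusted p = 0.0199) and 2185 ± 1288 CPM in TL3d (log2 1.73 ± 0.48, adjusted p = 0.0364). The CLU call at TL3h did not pass without control replicate 1, control replicate 3, or TL3h replicate 1 (adjusted p up to 0.0793), or when scaled by library size only (0.0839). The call at TL3d did not pass when any 1 of 7 libraries was left out (all 3 control, TL3h replicate 3, TL3d replicates 1 and 2, and TL14d replicate 3, up to 0.131), and its log2 fold change was 1.13 without TL3d replicate 1.

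CFI, the protease that degrades C3b with cofactors, fell from 8.46 ± 1.66 to 3.10 ± 1.06 CPM at TL3h (log2 −1.45 ± 0.38, adjusted p = 0.0112). SUSD4, a membrane inhibitor, fell from 23.7 ± 4.04 to 14.2 ± 2.55 CPM at TL3h (log2 −0.74 ± 0.21, adjusted p = 0.0148) and was higher at TL3d, at 35.0 ± 2.17 CPM (log2 1.30 ± 0.21 against TL3h, adjusted p = 0.00105). CD46, a cofactor of factor I, fell at TL3h (adjusted p = 0.0194) and TL3d (adjusted p = 0.0269) but had a mean of 0.70 CPM over all libraries, below the 1 CPM asked for a gene to be described in full.

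Among receptors, C5AR2, the other receptor of C5a, rose from 1.67 ± 0.56 CPM to 10.5 ± 2.49 CPM in TL3h (log2 2.66 ± 0.42, adjusted p = 0.000744) and 5.04 ± 0.78 CPM in TL3d (log2 1.59 ± 0.41, adjusted p = 0.0286). The call at TL3d did not pass without control replicate 1 or 2 or TL3d replicate 1 or 2 (adjusted p up to 0.0971). ITGB2, the shared chain of the leukocyte integrins that include complement receptors 3 and 4, rose from 25.1 ± 18.8 CPM to 468 ± 220.1 CPM in TL3h (log2 4.22 ± 1.03, adjusted p = 0.00757) and 347 ± 60.6 CPM in TL3d (log2 3.79 ± 1.01, adjusted p = 0.0320). Without control replicate 3 these were 4.94 and 4.55, and the call at TL3d did not pass without control replicate 1 or 2 or TL3d replicate 1 or 2 (adjusted p up to 0.106).

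ITGAX, the other chain of complement receptor 4, rose from 1.34 ± 0.46 to 22.2 ± 9.51 CPM at TL3d (log2 4.04 ± 1.17, adjusted p = 0.0411), a call that did not pass when any 1 of the 9 control, TL3h, and TL3d libraries was left out (adjusted p up to 0.121). CD93, a receptor once linked to C1q, rose from 12.3 ± 7.99 to 54.3 ± 26.7 CPM at TL3h (log2 2.14 ± 0.76, adjusted p = 0.0422), which did not pass when any 1 of 8 libraries was left out (all 3 control, all 3 TL3h, and TL3d replicates 1 and 2, up to 0.146) or when scaled by library size only (0.0850). CR1, the C3b receptor counted above with the membrane regulators, fell from 4.33 ± 1.79 to 1.22 ± 0.28 CPM at TL3d (log2 −1.82 ± 0.43, adjusted p = 0.0218) and was also lower there than at TL3h (log2 −1.29 ± 0.42, adjusted p = 0.0358). The first call did not pass without control replicate 1 or 2 or TL3d replicate 1 or 2 (adjusted p up to 0.0847), and the second without control replicate 2, TL3h replicate 1 or 3, or TL3d replicate 1 or 2 (up to 0.156) or when scaled by library size only (0.151).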

How the data were processed

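RNA of conjunctiva was sequenced by the authors in 12 libraries, grouped by their labels. By the study's methods and the submitters' processing notes, reads were mapped to OryCun2.0 with STAR 2.6.0c and summarized with GeneData Profiler Genome. The authors deposited estimated counts per gene and per transcript, some of them fractions, and FPKM values, which they had divided by length and depth. How reads with several placements were shared, and whether counting used the strand of the stranded libraries, are not given in the sources used here.

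Estimated counts were rounded, filtered with filterByExpr (minimum count 10, total 15), TMM-normalized, and tested in 1 quasi-likelihood fit of all 12 libraries without covariates in edgeR 4.0.16 (R 4.3.3). Adjustment over 14835 genes followed Benjamini-Hochberg (threshold 0.05). Fold changes used a prior count of 0.125, and SE and 95% intervals were derived from the fold change and its test statistic. FPKM served for levels between genes and ratios. The 6 ratios were examined by exact two-sided permutation tests. Alternatives used DESeq2 1.42.0, limma 3.58.1 (prior counts 2 and 1), other scalings, and fewer libraries. The labels do not say whether libraries came from separate animals, so p-values measure the spread between these libraries.

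The members and gene lists were chosen with earlier results of these data known. All members were named. Other complement genes were named where they were called and averaged 1 CPM or more, and SERPING1 and CD46 were named after their values were seen. For each member the 3 most correlated genes named by a symbol were given. C1q-like genes outside complement were not listed, and 1 listed gene is counted but its values are not reported here. Names in mOryCun1.1 come from RefSeq, and no coordinate of that assembly was used. The fit was tested on simulated data.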

Additional observations from a re-analysis of the deposited data

Results flagged for a closer look

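C3AR1 stood out because its change over control differed between time points by a direct test of the difference. The difference between TL3d and TL3h was 4.13 on the log2 scale (adjusted p = 0.000391), with every TL3d library above every TL3h library. The difference between TL14d and TL3d was −3.41 on the log2 scale (adjusted p = 0.0243), with every TL14d library below every TL3d library, and this second call did not pass without TL3d replicate 1, TL3d replicate 2, or TL14d replicate 3 (adjusted p up to 0.0948). Neither difference contains the control mean, and the control libraries enter both through the shared filter, scaling, and estimate of spread.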

How the results depend on the processing

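Of 735 member values recomputed under the alternatives, 685 kept direction and side of the threshold, 16 lost the threshold, 9 gained it, and 25 reversed. The cause was not tested. With the 6 libraries compared alone, members called were 2 at TL3h, 1 at TL3d, 2 for TL3d against TL3h, and 0 for TL14d against TL3d (1, 2, 1, and 1 as reported), and 1 at TL3d with no filter. Over all genes those 6-library fits called 6488, 3263, 5823, and 15 genes (6733, 2608, 5537, and 332 as reported). The fit without a filter called 2201 genes at TL3d. With DESeq2, 2 members passed for TL3d against TL3h and 3 for TL14d against TL3d, and of the other complement genes 2 at TL14d, 12 for TL3d against TL3h, and 5 for TL14d against TL3d (0, 7, and 1 as reported). Over all genes DESeq2 called 367, 6626, and 1850 genes in these 3 comparisons (0, 5537, and 332 as reported). With limma, 2 other complement genes passed for TL14d against TL3d at either prior count, where 477 and 435 of all genes passed. Deviations from the group mean correlated from −0.15 to 0.48 between libraries of the same replicate number. With 3 libraries per group and no reference for these values, they cannot settle whether the numbers pair libraries. With the number as a replicate block, 2 members passed for TL3d against TL3h, C1R being added, where 5831 of all genes passed. Without 1 library each, members called ranged from 1 to 1 (TL3h), 1 to 2 (TL3d), 0 to 0 (TL14d), 1 to 2 (TL3d against TL3h), and 0 to 2 (TL14d against TL3d), and other complement genes from 7 to 10, 0 to 9, 0 to 2, 3 to 9, and 0 to 2. Calls over all genes ranged there from 5280 to 7271, 359 to 3778, 0 to 716, 3954 to 6231, and 0 to 584.

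Reversed log2 differences were as follows. With library size only, which moved the median of all genes at TL3h from 0.02 to −0.47, C1QC was −0.067 and C3 −0.13 at TL3h, and C1QC 0.13 for TL3d against TL3h. With the replicate block, C3AR1 was 0.030 at TL3h, CFB −0.16 for TL3d against TL3h, and C1R 0.066 for TL14d against TL3d. With limma at prior counts 2 and 1, C5AR1 was 0.054 and 0.055 at TL14d, and CFB −0.17 and −0.17 for TL3d against TL3h. Without 1 library each, C1QC ranged from −0.050 to 1.37, C3 from −0.054 to 0.64, and C3AR1 from −0.36 to 0.26 at TL3h; C1QC from −0.39 to 1.06 and C1S from −0.98 to 0.78 at TL3d; C1S from −1.16 to 0.12 and C5AR1 from −0.73 to 1.11 at TL14d; CFB from −0.74 to 0.53 for TL3d against TL3h; and C1R from −0.62 to 0.92 and C1S from −1.14 to 0.19 for TL14d against TL3d. The 3 libraries per group limit all comparisons.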
